A study of Rattus norvegicus with 6 samples.

Results

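Neuregulin 1 (Nrg1) and the receptor genes Erbb2 and Erbb3 were measured in the trigeminal nerve of 3 rat strains. They were taken as all probes whose platform gene symbol was one of these names, which gave 3 genes of the 13192 named on the array, with 1 probe each (ILMN_1357348 for Nrg1, ILMN_1350020 for Erbb2 and ILMN_1353005 for Erbb3). The study set out to compare strains that differ in their susceptibility to carcinogen-induced nerve tumours, and all its animals were untreated. Nerves were pooled by strain and sex, and each pool was hybridised to 1 Illumina rat expression BeadChip, which gave 6 arrays.

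All rats were 85 days old. The congenic strain BDIX.BDIV-Mss4a, called congenic here, carries a BDIV segment named Mss4a on the BDIX background and had 1 male and 1 female pool. BDIV, the strain resistant to schwannoma induction by ethylnitrosourea, had 1 male and 1 female pool, and so did BDIX, the susceptible strain. The sources used here state neither the number of animals in a pool nor a hybridisation batch, so strain and any such batch cannot be told apart. Every strain mean below rests on 2 arrays, and a p-value reflects how these 6 pools vary beyond strain and sex, which may be technical in part.

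Neuregulin 1 is a growth factor of the epidermal growth factor family that axons present to Schwann cells. It binds the receptor ErbB3, whose own kinase is weak, and ErbB3 signals as a pair with ErbB2, which has an active kinase and no ligand of its own. In peripheral nerve this pair governs the survival and migration of Schwann cell precursors and the thickness of the myelin sheath. In the rat, Erbb2 (also called neu) is known as the oncogene that ethylnitrosourea activates by point mutation in schwannomas.

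The arrays differed in brightness, which bears on dim probes. The upper quartile of the signal was 2.58 and 2.64 times the background mean on the congenic arrays, 6.47 and 6.48 times on the BDIV arrays and 5.33 and 5.95 times on the BDIX arrays. The share of probes detected was 40.3% and 41.0% in congenic, 45.8% and 46.6% in BDIV and 44.8% and 47.2% in BDIX (male and female). A probe counted as detected on an array where its detection p was under 0.01. Tests were made on the 10484 probes detected on at least 2 arrays, and a probe was called where limma's Benjamini-Hochberg adjusted p was under 0.05. Normalised log2 intensities carry no common scale between probes, so levels are compared only within a gene.

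Nrg1 was bright in BDIV, dim in BDIX and not detected in congenic. Its deposited signal was 98.3 in the congenic male pool and 86.1 in the congenic female pool, with detection p-values of 0.0764 and 0.232. The signal was 818 and 834 in the BDIV male and female pools and 124 and 135 in the BDIX male and female pools, and all 4 of these arrays detected the probe. In units of the array's own background SD, the Nrg1 signal lay 1.24 and 0.544 SD above the background mean in congenic, 53.6 and 57.8 SD in BDIV and 4.86 and 7.06 SD in BDIX. The strains did not overlap, and the male and female pools of a strain stood close together.

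On the normalised log2 scale, the Nrg1 level was 5.07 ± 0.26 in congenic, 9.12 ± 0.04 in BDIV and 6.30 ± 0.13 in BDIX (SD, n = 2 each). BDIV exceeded BDIX by 2.82 ± 0.25 (log2 ± SE, adjusted p = 0.00230 from limma), a 7.04-fold difference. It was the 24th highest difference among the 10484 probes, of which 27.1% were called in this comparison and 13.6% were higher in BDIV. Nrg1 fell in congenic relative to BDIX, with a log2 difference of -1.23 ± 0.25 (adjusted p = 0.0281 from limma). The congenic values lie at background, so the size of this difference is uncertain. Of all probes 11.8% were called in this comparison, 7.56% as lower and 4.26% as higher. Without the congenic female array this call was lost, at a log2 difference of -0.99 (adjusted p = 0.101 from limma), and with cyclic loess in place of quantiles it was lost at -0.63 (adjusted p = 0.106 from limma).

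Congenic and BDIV differed most. The Nrg1 level was lower in congenic than in BDIV, with a fitted log2 difference of -4.04 ± 0.25 (adjusted p = 4.64e-04 from limma). It was the 8th lowest of all probes, in a comparison in which 37.0% were called and 18.9% were lower. By fitted values the congenic strain stood on the far side of BDIX from the strain that gave its segment. That order rests on undetected congenic values, and the congenic minus BDIX call was lost in the settings given above. No lower bound is given for a difference from undetected values, because detection did not follow the level strictly. On the congenic male array the dimmest level detected was 5.37, yet the Nkx6-2 probe was not detected at 6.01. The fitted differences hold only for the offset and normalisation used here. With an offset of 50, the fitted Nrg1 difference was -3.12 for congenic minus BDIV and -0.74 for congenic minus BDIX. With cyclic loess it was -3.57 for congenic minus BDIV. In RNA from a whole nerve, fewer cells of a type and less RNA per cell cannot be told apart, and a strain variant within a probe's target would read like a change in transcript amount. Probe sequences were not analysed here.

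**Figure D1:**
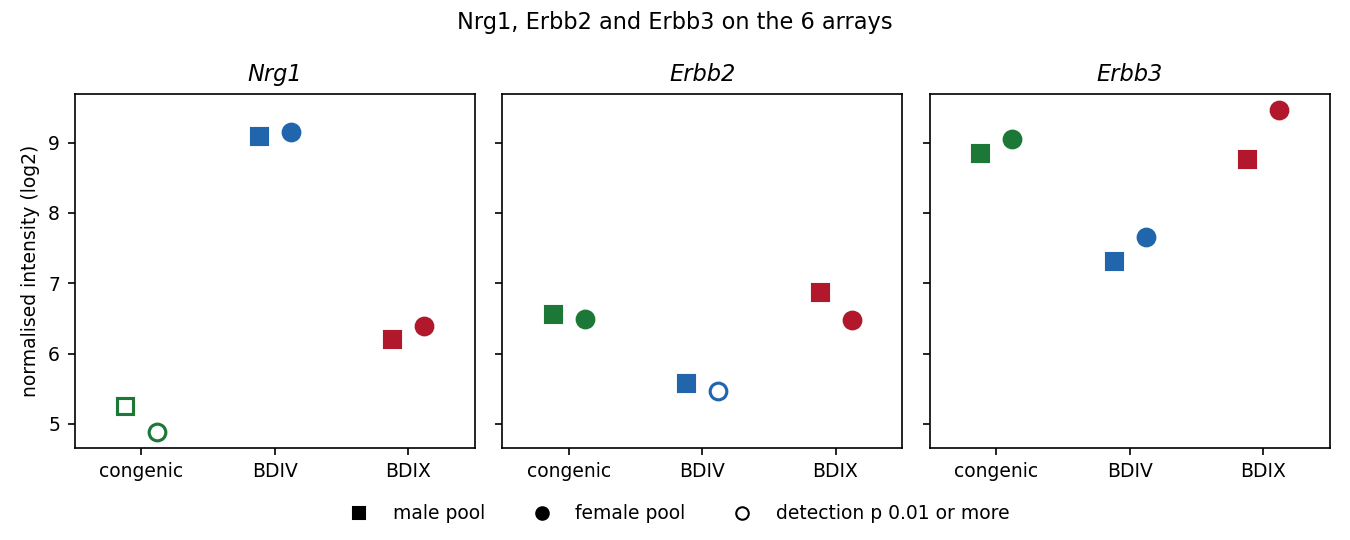
Normalised log2 intensity of the Nrg1, Erbb2 and Erbb3 probes on each of the 6 arrays, with strains ordered congenic, BDIV and BDIX along the x axis; squares are male and circles female pools, and open symbols mark arrays that did not detect the probe. Nrg1 is highest in BDIV and not detected in congenic, whereas Erbb2 and Erbb3 are lowest in BDIV.

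Erbb2, which encodes the receptor with the active kinase, was dim on all 6 arrays. Its deposited signal was 126 and 118 in the congenic male and female pools, 109 and 103 in the BDIV male and female pools and 172 and 141 in the BDIX male and female pools. The BDIV female array missed detection narrowly, at a detection p of 0.0109, and the other 5 arrays detected the probe. Both BDIV signals were below those of the other strains, but the background mean also differed, at 84.6 and 80.6 in congenic and 66.1 and 65.6 in BDIV. The Erbb2 signal lay 3.77 and 3.71 SD above background in congenic, 2.84 to 3.08 SD in BDIV and 7.59 to 8.70 SD in BDIX.

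The normalised log2 level of Erbb2 was 6.53 ± 0.05 in congenic, 5.52 ± 0.09 in BDIV and 6.67 ± 0.28 in BDIX (SD, n = 2 each). Erbb2 fell in BDIV relative to BDIX by 1.15 ± 0.23 (log2 ± SE, adjusted p = 0.0138 from limma), a 2.22-fold difference and the 483rd lowest of all probes, 13.6% of which were called lower. The call rested on both BDIV arrays. Without the BDIV male array the difference was -1.09 with an adjusted p of 0.0967, and without the BDIV female array it was -1.21 with an adjusted p of 0.110, both from limma. Between congenic and BDIX, Erbb2 differed by -0.14 ± 0.23, which did not pass the test (adjusted p = 0.695 from limma).

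Erbb3, which encodes the receptor that binds neuregulin 1, was well above background on every array. Its deposited signal was 318 and 353 in the congenic male and female pools, 269 and 324 in the BDIV male and female pools and 511 and 788 in the BDIX male and female pools. The BDIX signals were the highest, and the raw signals of congenic and BDIV overlapped. Within BDIX the female pool was brighter than the male pool, a wider gap than in the other strains.

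The normalised log2 level of Erbb3 was 8.95 ± 0.14 in congenic, 7.49 ± 0.24 in BDIV and 9.12 ± 0.49 in BDIX (SD, n = 2 each). Erbb3 fell in BDIV relative to BDIX by 1.63 ± 0.21 (log2 ± SE, adjusted p = 0.00469 from limma), a 3.09-fold difference and the 121st lowest of all probes. This call was kept in each of the 6 fits that left out 1 array. Congenic and BDIX differed by -0.17 ± 0.21, which did not pass the test (adjusted p = 0.605 from limma), and their normalised values overlapped.

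Relative to BDIV, both receptor genes were higher in congenic, in a comparison in which 18.1% of probes were called higher. Erbb3 rose by 1.46 ± 0.21 (log2 ± SE, adjusted p = 0.00381 from limma), or 2.75-fold, and Erbb2 by 1.01 ± 0.23 (adjusted p = 0.0159 from limma), or 2.01-fold. The Erbb2 call was lost without the BDIV male array (0.95, adjusted p = 0.136 from limma) and without the BDIV female array (1.07, adjusted p = 0.113 from limma). The comparison of BDIV with BDIX and that of congenic with BDIV share the 2 BDIV arrays.

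These receptor differences between congenic and BDIV depend on how the dimmer congenic arrays are put on a common scale. Before scaling, the background-corrected intensity of Erbb2 was 41.2 and 37.5 in congenic and 42.9 and 37.6 in BDIV, so the strains overlapped. That of Erbb3 was 233 and 272 in congenic and 202 and 259 in BDIV, which overlapped too. For Nrg1 the corrected intensity was 15.7 and 10.3 in congenic and 751 and 768 in BDIV, so the strains were far apart before scaling too.

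Scaling each array by its median alone, instead of by quantiles, moved the median of all probes to -0.48 for congenic minus BDIX and to -0.61 for congenic minus BDIV. On that scale Erbb2 was 0.54 higher in congenic than in BDIV (adjusted p = 0.0694 from limma), which lost the call, and Erbb3 0.69 higher (adjusted p = 0.0278 from limma). Relative to the shifted median these are differences of 1.15 for Erbb2 and 1.31 for Erbb3. On the same scale Erbb2 (-0.67, adjusted p = 0.0447 from limma) and Erbb3 (-0.80, adjusted p = 0.0237 from limma) were called lower in congenic than in BDIX, but only 0.19 and 0.33 below the shifted median. Of all probes called between congenic and BDIX, 3.03% were higher on that scale and 36.0% with quantiles. Of those called between congenic and BDIV, 9.67% were higher with median scaling and 49.0% with quantiles. Between BDIV and BDIX the shares were 63.8% and 49.9%.

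**Figure D2:**
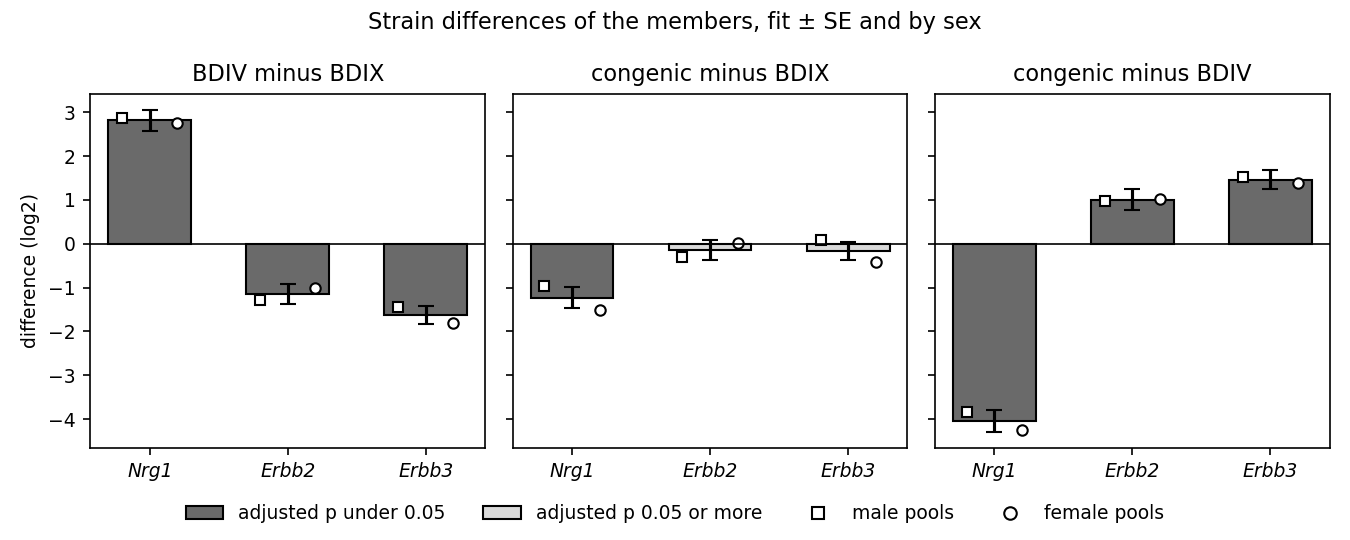
Log2 differences of Nrg1, Erbb2 and Erbb3 on the y axis for BDIV minus BDIX, congenic minus BDIX and congenic minus BDIV; bars are the fit over 6 arrays with its SE, dark where the adjusted p was under 0.05, squares the male and circles the female pools. Nrg1 points up in BDIV minus BDIX at 2.82, opposite to Erbb2 at -1.15 and Erbb3 at -1.63, and the order is turned in congenic minus BDIV.

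Within an array, ligand and receptor genes moved in opposite directions between BDIV and BDIX. The Nrg1 difference exceeded the Erbb3 difference by 4.33 in the male and 4.56 in the female pools (log2), and the Erbb2 difference by 4.17 in male and 3.77 in female pools. The Erbb2 and Erbb3 differences lay closer together, 0.16 apart in male and 0.79 apart in female pools. A gap between probes of 1 array is not altered by a scale factor of that array. The offset and quantile normalisation depend on intensity, however, and can alter it. With an offset of 50, the BDIV minus BDIX difference was 2.38 for Nrg1, -0.77 for Erbb2 and -1.47 for Erbb3. Such a gap shows unequal change rather than a lack of change in either gene.

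**Figure D3:**
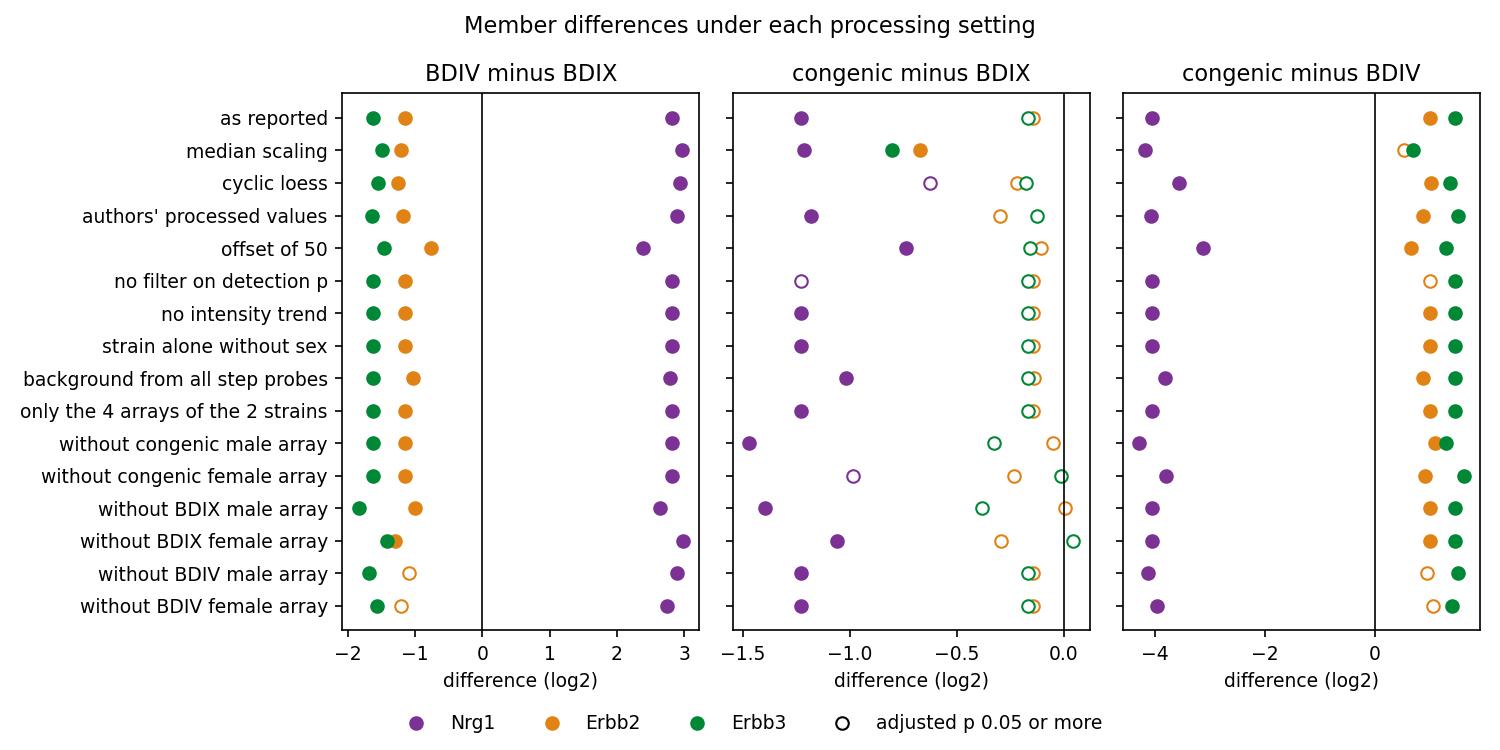
Log2 differences of Nrg1, Erbb2 and Erbb3 in the 3 strain comparisons under each processing setting on the y axis; filled points passed an adjusted p of 0.05 and open points did not. Nrg1 in BDIV minus BDIX stays above 2 in every setting shown, whereas the Erbb2 and Erbb3 values of the congenic comparisons shift with median scaling.

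The sexes differed less than the strains. By limma 0 of the 10484 probes passed the test for male minus female (0% called, and 314 at an unadjusted p under 0.05), and the Nrg1 difference was 0.04 ± 0.20 (log2 ± SE, adjusted p = 0.991 from limma). Erbb2 differed by 0.20 ± 0.19 (adjusted p = 0.960 from limma). Erbb3 was -0.42 ± 0.17 on the male minus female scale, with an unadjusted p of 0.0468 that did not hold after adjustment (0.960, limma), and lower in the male pool in 3 of 3 strains. The strain differences of BDIV minus BDIX had the same sign in both sexes, at 2.88 in male and 2.75 in female pools for Nrg1, -1.29 and -1.01 for Erbb2 and -1.45 and -1.81 for Erbb3.

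The remaining ErbB family was mostly not measurable. Egfr, the receptor for epidermal growth factor, was detected on the BDIX female array alone, and Erbb4, a further neuregulin receptor, on the BDIV female array alone. The Egfr signal spanned 83.1 to 104 over the 6 arrays and that of Erbb4 77.0 to 107, close to background throughout. Nrg2, Areg, Ereg, Epgn and Btc, all genes for ErbB ligands, were detected on 0 arrays, with signals between 52.0 and 90.9. None of these 7 genes was tested, and Nrg3 and Nrg4 were not analysed here.

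Of the ErbB ligands, 4 of 11 listed genes were tested. Counts in this and the following lists stand beside the shares of all tested probes. In BDIV minus BDIX 13.6% were called higher and 13.6% lower. The shares higher and lower were 4.26% and 7.56% in congenic minus BDIX, and 18.1% and 18.9% in congenic minus BDIV. In BDIV relative to BDIX, Nrg1 was the 1 that was higher and the other 3, all ligands of Egfr, were lower. These were Hbegf, heparin-binding epidermal growth factor, at -1.15 ± 0.26 (adjusted p = 0.0201), Tgfa, transforming growth factor alpha, at -1.02 ± 0.25 (adjusted p = 0.0235), and Egf itself at -0.94 ± 0.22 (adjusted p = 0.0204), all from limma. The median of these 3 was -1.02, beside -0.03 for all probes. None held without the BDIV female array, where the adjusted p was 0.218 for Hbegf, 0.316 for Tgfa and 0.258 for Egf, and Egf was also lost without the BDIV male array (adjusted p = 0.0692).

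Between congenic and BDIX, Nrg1 was the only ligand of the 4 that passed limma's test, and 2 had an unadjusted p under 0.05. Hbegf, Tgfa and Egf did not pass, with a median of 0.09 for the 3, beside 0.00 for all probes. Relative to BDIV, Hbegf rose in congenic by 1.53 ± 0.26 (adjusted p = 0.00613 from limma) and Tgfa by 1.10 ± 0.25 (adjusted p = 0.0139 from limma). Hbegf held in each fit that left out 1 array. Tgfa did not hold without the congenic female (adjusted p = 0.106) or without the BDIV female array (adjusted p = 0.177), nor with median scaling (0.37, adjusted p = 0.219). Among the tested ligands, Nrg1 was therefore the 1 with its highest level in BDIV.

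Neuregulin 1 is cut at the axon surface before it acts or as it stops acting, by the beta-secretase Bace1 and by the metalloprotease Adam17, whose transport depends on the inactive rhomboids Rhbdf1 and Rhbdf2. Of 14 listed genes for its shedding and processing, 10 were tested, and in BDIV relative to BDIX 4 fell and 1 rose, with a median of -0.58. Of all probes 13.6% were called in each direction in this comparison. Rhbdf1 had log2 levels of 7.07 and 7.37 in the BDIV male and female pools, against 9.80 and 9.91 in BDIX, a difference of -2.63 ± 0.19 (adjusted p = 9.19e-04 from limma). Adam17 had levels of 8.99 and 8.90 in BDIV, against 10.58 and 10.43 in BDIX, and differed by -1.57 ± 0.18 (adjusted p = 0.00379 from limma). Both genes were lower in both BDIV pools by more than their spread, and both calls held in each fit that left out 1 array.

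The other called processing genes were less stable. Rhbdf2 fell by 1.16 ± 0.27 (adjusted p = 0.0211 from limma) and Adam10, another metalloprotease of cell-surface proteins, fell by 1.30 ± 0.34 (adjusted p = 0.0311). Psen2, a catalytic subunit of gamma-secretase, rose by 1.31 ± 0.22 (adjusted p = 0.00772). Without the BDIV female array the adjusted p was 0.0704 for Rhbdf2, 0.310 for Adam10 and 0.0704 for Psen2. Rhbdf2 was also lost without the BDIX female (0.0597) or the BDIV male array (0.171), and Adam10 without the BDIX female array (0.129). Bace1 differed by 0.19 ± 0.29, which did not pass (adjusted p = 0.658).

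Of the 10 processing genes 1 fell in congenic relative to BDIX and 0 rose, with a median of -0.31. This was Adam10, at -2.02 ± 0.34 (adjusted p = 0.0219 from limma), with levels of 5.68 and 6.19 in the congenic male and female pools and 7.25 and 8.66 in the BDIX pools. Relative to BDIV, Rhbdf1 rose in congenic by 2.77 ± 0.19 (adjusted p = 6.42e-04) and Adam17 rose by 1.19 ± 0.18 (adjusted p = 0.00424), and Psen2 fell by 1.72 ± 0.22 (adjusted p = 0.00277), each also in every fit without 1 array. Adam17 dropped below the threshold with median scaling (0.41, adjusted p = 0.104), while Rhbdf1 and Psen2 passed there.

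Behind the receptors, signals run through adaptors to the Ras-MAPK cascade and through PI3K to Akt. Of 15 adaptor and Ras-MAPK genes 7 were tested, and in BDIV relative to BDIX 2 fell and 0 rose, with a median of -0.35. Of all probes 27.1% were called in this comparison, 13.6% as lower, so the count lay near the share over all probes. Gab1, a docking protein for activated receptors, fell by 1.60 ± 0.34 (adjusted p = 0.0157 from limma) and Braf, a kinase of the cascade, fell by 1.03 ± 0.21 (adjusted p = 0.0154). Both were lost without the BDIV female array (0.126 for Gab1 and 0.106 for Braf), and Braf also without the BDIV male array (0.0752). In congenic 0 of 7 passed limma's test against BDIX (2 had an unadjusted p under 0.05), and 1 rose against BDIV. This was Braf at 0.76 ± 0.21 (adjusted p = 0.0305), which was lost without any of the congenic or BDIV arrays, at adjusted p-values of 0.0605 to 0.298, and was -0.03 with median scaling.

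Of 17 genes of the PI3K-Akt and phospholipase C gamma arm 13 were tested, with medians of 0.11 in BDIV minus BDIX, -0.11 in congenic minus BDIX and -0.03 in congenic minus BDIV. In BDIV relative to BDIX 2 rose and 1 fell, in a comparison in which 27.1% of all probes were called. Pdpk1, the kinase that activates Akt, rose by 0.74 ± 0.17 (adjusted p = 0.0211 from limma) and Akt2 fell by 1.05 ± 0.25 (adjusted p = 0.0226). The other gene that rose was Pdk1 at 1.23 ± 0.24 (adjusted p = 0.0126), which encodes a pyruvate dehydrogenase kinase of mitochondria and is no part of this arm despite its place in the list. All 3 were lost without the BDIV female array (0.226 for Pdpk1, 0.175 for Akt2 and 0.0888 for Pdk1). Pdpk1 was also lost without the BDIV male (0.125), the congenic male (0.0529) or the congenic female array (0.0533), and Akt2 without the BDIV male (0.120) or the BDIX female array (0.0964).

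Between congenic and BDIX 2 of these 13 fell in congenic and 0 rose. Rps6kb1, the ribosomal S6 kinase, fell by 1.24 ± 0.23 (adjusted p = 0.0253 from limma) and Plcg1, phospholipase C gamma, fell by 0.69 ± 0.18 (adjusted p = 0.0472). Rps6kb1 was lost without the congenic male array (0.0902), and Plcg1 without either congenic or either BDIV array (0.0876 to 0.341). Between congenic and BDIV 1 rose in congenic and 3 fell. Pdpk1 fell by 1.14 ± 0.17 (adjusted p = 0.00409 from limma), a call kept in each fit without 1 array. Plcg1 fell by 0.99 ± 0.18 (adjusted p = 0.00686) and Pdk1 fell by 1.17 ± 0.24 (adjusted p = 0.0112), and both were lost without the congenic male array (0.0816 for Plcg1 and 0.0857 for Pdk1). Plcg1 was also lost without the BDIV male (0.0709) and Pdk1 without the BDIV female array (0.0721). Nfatc4, a transcription factor activated through this arm, rose by 0.74 ± 0.22 (adjusted p = 0.0342), was lost without any congenic or BDIV array (0.0948 to 0.257) and was -0.04 with median scaling.

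Of 20 listed genes that restrain ErbB signalling 13 were tested. Between BDIV and BDIX 0 of them passed limma's test and 4 had an unadjusted p under 0.05, with a median of -0.12. The smallest p was that of Itch, a ubiquitin ligase, whose difference of -1.07 missed the threshold narrowly (adjusted p = 0.0502) and passed it in several alternative settings. Between congenic and BDIX 1 fell in congenic, with a median of -0.46. This was Spred1, an inhibitor of Ras signalling, at -1.27 ± 0.21 (adjusted p = 0.0206), which was lost without the congenic male array (0.0564). Against BDIV, Spred1 fell by 1.34 ± 0.21 in congenic (adjusted p = 0.00469), a call kept in each fit without 1 array. Usp8, a deubiquitinase of receptor sorting, fell by 1.11 ± 0.24 (adjusted p = 0.0129), and Spry1, another inhibitor of receptor kinase signalling, rose by 1.12 ± 0.24 (adjusted p = 0.0122). Usp8 was lost without the congenic female (0.128), the BDIV male (0.0555) or the BDIV female array (0.0735), and Spry1 without the BDIV male (0.0646) or female array (0.119) and with median scaling (0.51, adjusted p = 0.109).

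Of 14 Schwann cell genes listed as downstream of neuregulin 1 and the ErbB receptors, 10 were tested. The list holds Sox10, although Sox10 drives Erbb3 and so also stands upstream of that receptor. Medians of the 10 were -0.62 in BDIV minus BDIX, -0.36 in congenic minus BDIX and 0.30 in congenic minus BDIV. In BDIV relative to BDIX 3 fell and 0 rose, where 27.1% of all probes were called and 13.6% were lower. Sox10, the transcription factor of the Schwann lineage that drives Erbb3, had log2 levels of 10.64 and 10.68 in the BDIV male and female pools, against 12.31 and 12.52 in BDIX, and fell by 1.75 ± 0.17 (adjusted p = 0.00263 from limma). Mbp, myelin basic protein, had levels of 11.88 and 11.93 in BDIV, against 13.03 and 13.92 in BDIX, and fell by 1.57 ± 0.24 (adjusted p = 0.00634). Both were lower in both BDIV pools and held in each fit without 1 array. Pou3f1, a factor of the promyelinating stage, differed by -0.90 ± 0.24 (adjusted p = 0.0315 from limma), with BDIV levels that were not detected. Its call was lost without either BDIX or either BDIV array, at differences of -0.71 to -1.10.

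Between congenic and BDIX 2 of these 10 fell in congenic. Mbp fell by 2.15 ± 0.24 (adjusted p = 0.00916 from limma), with levels of 11.24 and 11.41 in congenic. Nab1, a corepressor that works with Egr2, differed by -1.52 ± 0.24 (adjusted p = 0.0176 from limma) and was not detected in congenic. Both calls held in each fit without 1 array. Mbp was lower than in BDIX both in BDIV, where Nrg1 was high, and in congenic, where it was not detected, in comparisons that share the 2 BDIX arrays. Relative to BDIV, Sox10 rose in congenic by 1.33 ± 0.17 (adjusted p = 0.00283), also in each fit without 1 array.

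The other 3 calls between congenic and BDIV were weaker. Egr2, the master regulator of myelination, rose by 1.41 ± 0.43 (adjusted p = 0.0379 from limma). Pou3f1 was 0.96 ± 0.24 higher (adjusted p = 0.0204 from limma), with BDIV levels that were not detected. Nab1 differed by -0.77 ± 0.24 (adjusted p = 0.0405 from limma), with congenic levels that were not detected. The Nab1 call was lost with cyclic loess (-0.37, adjusted p = 0.246 from limma) and with an offset of 50 (-0.44, adjusted p = 0.0670). It was also lost on the authors' processed values (-0.85, adjusted p = 0.0618). Egr2 was lost without the congenic female (0.101) or BDIV female array (0.349) and with median scaling (0.89, adjusted p = 0.0684). Pou3f1 was lost without either BDIV array (0.0866 and 0.223), and Nab1 without either congenic or either BDIV array (0.0813 to 0.331).

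**Figure D4:**
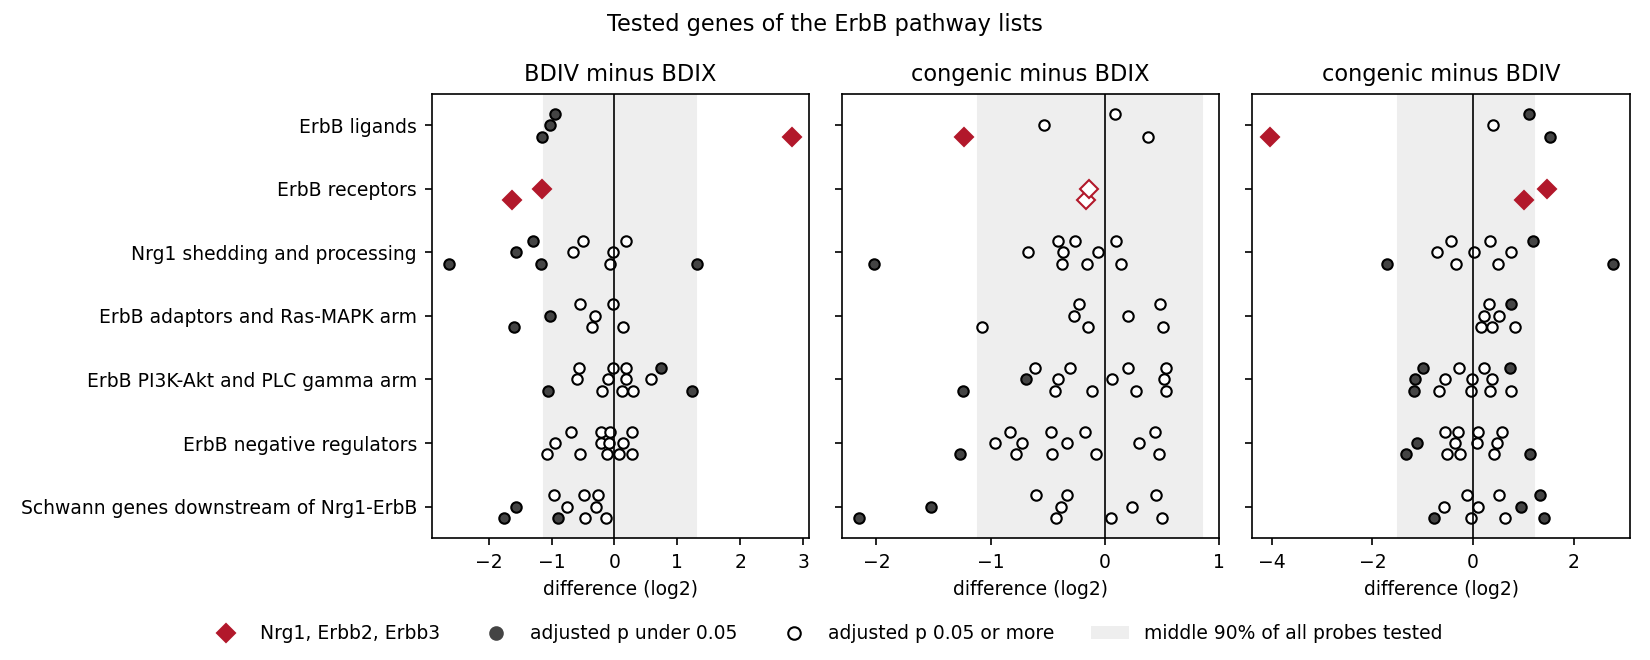
Log2 differences of the tested genes of 7 lists around Nrg1 and its receptors in the 3 strain comparisons; each point is 1 gene, filled where its adjusted p was under 0.05, red diamonds are Nrg1, Erbb2 and Erbb3, and the grey band holds the middle of all tested probes. In BDIV minus BDIX, Nrg1 at 2.82 stands apart from the other ErbB ligands, and the lowest points of their lists are Rhbdf1 at -2.63 and Sox10 at -1.75.

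The cell types of the nerve were read from marker lists. S100b, a defining Schwann cell marker, had log2 levels of 13.79 and 13.79 in congenic, 13.45 and 13.22 in BDIV and 13.73 and 13.87 in BDIX, and the BDIV minus BDIX difference of -0.47 ± 0.20 did not pass (adjusted p = 0.120 from limma). Leaving out Erbb3, which the list also holds, 11 Schwann lineage genes were tested, and in BDIV relative to BDIX 2 rose and 1 fell, with a median of 0.13. The gene that fell was Sox10. Gap43, a growth-associated protein also listed for axons, was higher at 1.03 ± 0.21 (adjusted p = 0.0143), and Fabp7, a fatty acid binding protein of glia, at 1.83 ± 0.51 (adjusted p = 0.0361), both lost without the BDIV female array (0.215 for Gap43 and 0.129 for Fabp7). The summed intensity of these 11 genes was 39724 to 44359 in BDIV and 37532 to 39681 in BDIX, and 48445 to 56984 in congenic. Without Gap43, the 1 gene that the axon list also holds, the sum of the other 10 was 24399 to 27006 in BDIV, against 30384 to 30810 in BDIX, and 32346 to 43689 in congenic. Both sums hold Gfap, which is also in the list of oligodendrocyte and central nerve markers given below. Gfap had levels of 11.96 and 13.75 in the congenic male and female pools, 11.08 and 12.20 in BDIV and 11.47 and 9.93 in BDIX. The part of central nerve tissue in these sums was not tested. The summed lineage level was thus lower in BDIV without Gap43 and not lower with it, and of the 10 genes 1 rose and 1 fell in BDIV, with a median of -0.14. Its part in the fall of Erbb3 was not tested.

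Many myelin genes were lower than in BDIX, both in BDIV and in congenic. Of 11 markers of myelinating Schwann cells 8 fell in BDIV relative to BDIX and 0 rose, with a median of -1.14. In this comparison 13.6% of all probes were called lower. Cnp, a myelin enzyme, fell by 1.85 ± 0.20 (adjusted p = 0.00289 from limma) and Gldn, a protein of the node of Ranvier, fell by 1.92 ± 0.25 (adjusted p = 0.00469). The count was 3 of 11 without the BDIV female array. The summed intensity was 58425 to 71196 in BDIV and 109115 to 149050 in BDIX. In congenic, with sums of 91150 to 100129, 5 of the 11 fell relative to BDIX and 0 rose, with a median of -1.01. Cnp and Gldn were not among these 5, at -0.41 (adjusted p = 0.195) and 0.19 (adjusted p = 0.622 from limma). Between congenic and BDIV, 3 of the 11 were higher in congenic and 2 lower, with a median of 0.07.

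Markers of sensory neurons and their axons, a main source of neuregulin 1 in nerve, were higher in BDIV along with Nrg1. RNA of neuronal cell bodies and RNA of axons were not told apart, and whether the pools differed in cell bodies was not tested. Of 18 tested genes 14 rose and 0 fell relative to BDIX, with a median of 1.07, where 13.6% of all probes were called higher. The count was 4 of 18 without the BDIV female and 9 without the BDIV male array. Ntrk2, a neurotrophin receptor, rose by 1.75 ± 0.19 (adjusted p = 0.00318 from limma) and Uchl1, a neuronal ubiquitin hydrolase, by 1.69 ± 0.22 (adjusted p = 0.00467). The summed intensity was 158737 to 159389 in BDIV and 85528 to 101840 in BDIX. In congenic the sum was 95397 to 118368, within reach of BDIX, and 1 gene of 18 rose and 1 fell relative to BDIX, whereas Nrg1 fell. Relative to BDIV, 11 of 18 fell in congenic and 0 rose, among them Stmn2 at -1.80 ± 0.20 (adjusted p = 0.00204) and Ntrk2 at -1.69 ± 0.19 (adjusted p = 0.00211). That count was 5 without the congenic female and 6 without the BDIV female array.

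Other tissue also varied between BDIV and BDIX, a comparison in which 13.6% of all probes were called lower and 13.6% higher. Of 15 fibroblast and perineurial markers 9 fell in BDIV relative to BDIX, or 4 without the BDIV female array, and the summed intensity was 58891 to 67806 in BDIV, against 92592 to 98748 in BDIX. Of 9 erythrocyte markers 7 fell, with sums of 14821 to 20958 in BDIV and 69194 to 72338 in BDIX. Of 9 neutrophil and bone marrow markers 7 fell, with sums of 347 to 370 in BDIV and 1542 to 9060 in BDIX, or 3 without the BDIV male array and 0 in the fit without sex. Of 6 endothelial markers 4 fell, or 1 without either BDIV array and 2 without the BDIX female array, among them Vwf, the von Willebrand factor, at -1.96 ± 0.18 (adjusted p = 0.00231 from limma). Of 4 skeletal muscle markers 1 rose, the muscle actin Acta1 at 2.30 ± 0.32 (adjusted p = 0.00498 from limma), with sums of 833 to 851 in BDIV and 346 to 489 in BDIX. Sums of 8 oligodendrocyte and central nerve markers spanned 5099 to 18238 in congenic, 3538 to 8054 in BDIV and 1847 to 4340 in BDIX, and those of 3 pituitary markers 302 to 7763 in congenic, 141 to 396 in BDIV and 1765 to 5815 in BDIX, with 0 of the 8 central nerve markers called by limma in any strain comparison (0 to 2 had an unadjusted p under 0.05). The part of these differences in the Nrg1, Erbb2 and Erbb3 results was not tested.

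**Figure D5:**
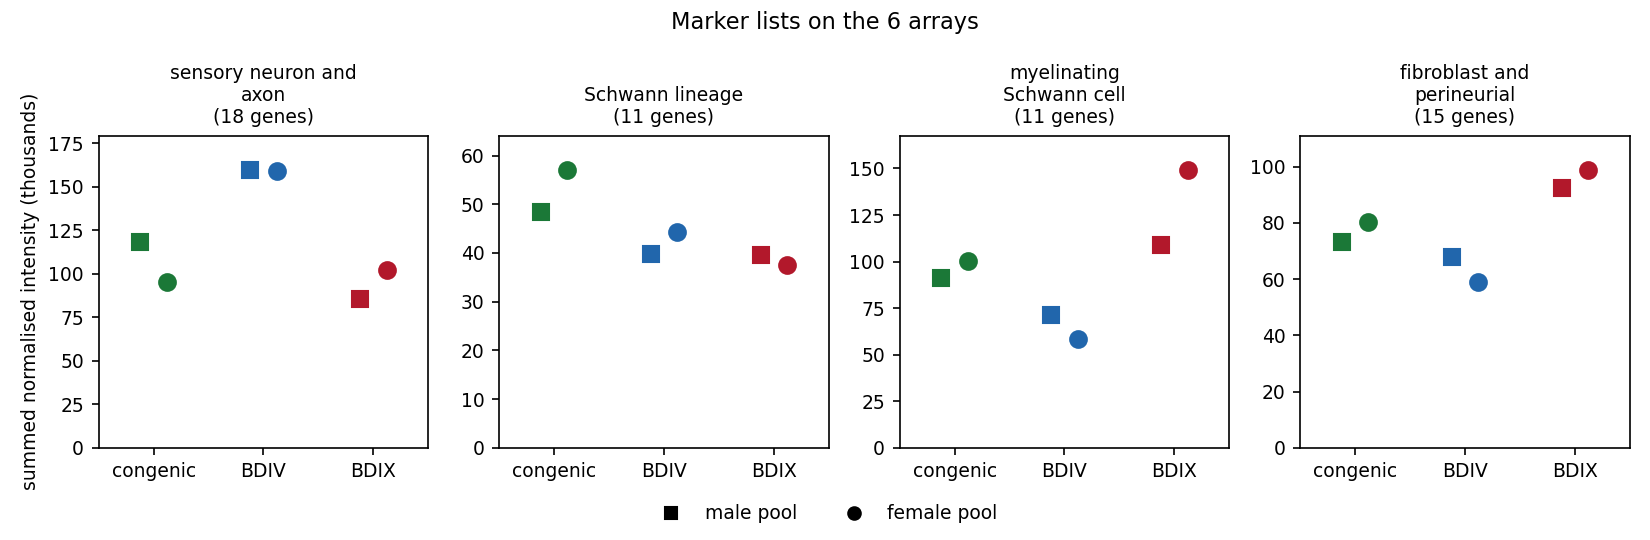
Summed normalised intensity of the marker lists on each array, with strains ordered congenic, BDIV and BDIX; each point is 1 array, male or female. The sensory neuron and axon sum is highest in BDIV, and the myelinating Schwann cell and fibroblast sums are highest in BDIX. The Schwann lineage sum, without Erbb3 and with Gap43 and Gfap, is highest in congenic.

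The genes on either side of each member in the genome order of the GRCr8 assembly were set beside it, 2 on each side among those tested, 12 in all. They were chosen by position. In BDIV relative to BDIX 1 of 12 was higher and 1 lower, where 13.6% of all probes were called in each direction, and both neighbour Erbb2. Mien1 was higher at 1.28 (adjusted p = 0.0223 from limma, and 0.175 without the BDIV female array) and Ppp1r1b lower at -1.16 (adjusted p = 0.00698). Between congenic and BDIX 2 of 12 were higher, Ppp1r1b at 1.09 (adjusted p = 0.0217) and Esyt1, next to Erbb3, at 0.99 (adjusted p = 0.0406), where 4.26% of all probes were called higher. Both were lost without the congenic male array (0.0574 for Ppp1r1b and 0.268 for Esyt1) and with median scaling (0.0779 and 0.202), and Ppp1r1b also without the congenic female array (0.0889). Between congenic and BDIV 3 of 12 were higher, where 18.1% of all probes were: Ppp1r1b at 2.26 (adjusted p = 0.00105), Suox, next to Erbb3, at 1.20 (adjusted p = 0.00718, lost at 0.0650 without the BDIV female array and at 0.127 with median scaling) and Ppp2cb, next to Nrg1. None of the 4 neighbours of Nrg1 passed in either comparison with BDIX, and Ppp2cb in congenic minus BDIV stood at 0.71 (adjusted p = 0.0339), opposite in direction to Nrg1. That call was lost without any of the congenic or BDIV arrays (0.143 to 0.342) and with median scaling (0.069, adjusted p = 0.775).

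The probes whose profiles over the 6 arrays were most like each member were found by the root mean square distance between log2 profiles centred on their own means. For Nrg1 they were Commd6 (0.292), Plcxd3 (0.321), Tmem243 (0.339), Pafah1b1 (0.340) and Lgi2 (0.438), against a median distance of 1.73 over all named probes. For Erbb2 they were Cep97 (0.0402), Mfap5 (0.0901), Trim41 (0.0939), Serping1 (0.104) and Cfp (0.106), with a median of 0.599. For Erbb3 they were Prrg4 (0.131), Stag1 (0.138), Smox (0.146), Ephb6 (0.161) and Rnd3 (0.162), with a median of 0.814. Erbb2 and Erbb3 lay 0.415 apart, so neither was among the nearest profiles of the other, and Nrg1 lay 2.18 from Erbb2 and 2.40 from Erbb3. The distance favours probes of similar spread and carries no test.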

How the data were processed

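Trizol was used to extract RNA of pooled nerves and an Ambion kit to label it with biotin, per the labels. The authors deposited the signal intensity of each probe on each array, linear and without background subtraction, and its detection p-value, per the file headers. The submitters' processing notes name BeadStudio 3.0. A second deposited table of processed intensity values, in which a level was subtracted and a scale applied per array, was an alternative. Of 21791 probes, 242 whose values were exchanged between the tables were left out.

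The background of each array was derived from its detection p-values (825 implied negative controls), without probes whose p was averaged or too low in rank for their signal. Normexp correction, an offset of 16, quantile normalisation and log2 followed (limma 3.58.1, R 4.3.3). A probe was kept where 2 or more of the 6 arrays detected it (p under 0.01). Strain and sex were fitted to all 6 arrays, with 2 residual and 5.23 prior degrees of freedom and an intensity trend. Every adjusted p is limma's, by Benjamini-Hochberg over all 10484 tested probes. The number of arrays limits the precision. The fit was tested on simulated data.

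Gene names came from the platform annotation, updated through the GRCr8 gene table (13349 probes by gene number, 5 by accession, 33 kept). In lists, 1 probe per gene, that of highest mean, was used. From each pathway list up to 4 genes with the smallest p per strain comparison were eligible to be named, from each marker list up to 2 genes, and for each member the 5 nearest profiles. Adam10 and Bace1 in BDIV minus BDIX, S100b, Gfap, Nkx6-2 and the chromosomal neighbours were named outside this rule. The members and lists were chosen with earlier results of these data known. Alternatives were median scaling, cyclic loess, the processed values, an offset of 50, no filter, no trend, strain alone, 2 strains alone, each array left out and, added after seeing the data, another background estimate and the Schwann lineage list without Gap43.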

Additional observations from a re-analysis of the deposited data

Results flagged for a closer look

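In 3 results, arrays of different groups moved in opposite directions. For Erbb2, congenic minus BDIX was -0.30 (log2) in male and 0.018 in female pools. For Erbb3, the same difference was 0.080 in male and -0.41 in female pools. For Nrg1, male minus female was 0.37 in congenic, -0.057 in BDIV and -0.18 in BDIX. With 1 array for each strain and sex, these differences between groups were not tested, and the congenic Nrg1 values lie at background. None of the 3 results passed limma's test in the fit over all 6 arrays.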

How the results depend on the processing

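The Nrg1 and Erbb3 calls of BDIV minus BDIX, and those of congenic minus BDIV, held in all settings tried. In congenic minus BDIX, Nrg1 was -0.63 with cyclic loess (adjusted p = 0.106) and -1.23 without a filter (adjusted p = 0.0567), so that the call was lost. Erbb2 and Erbb3 gained a call there with median scaling, at -0.67 and -0.80. In congenic minus BDIV, Erbb2 lost its call with median scaling (0.54) and without a filter (1.01, adjusted p = 0.0524). Male minus female for Nrg1 was -0.048 with median scaling, -0.0067 with cyclic loess and -0.13 on the authors' processed values. Braf and Nfatc4 in congenic minus BDIV turned to -0.030 and -0.040 with median scaling. On the authors' processed values the BDIV minus BDIX calls of Gap43, Fabp7, Mien1 and Adam10 were lost. Their adjusted p-values from limma there were 0.0711, 0.0924, 0.0624 and 0.0593. Probes called in congenic minus BDIX were 1240 as reported, 3895 with median scaling, 722 on the authors' processed values and 640 without a filter. The cause of these shifts was not tested.

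With each array left out in turn, the probes called were 608 to 4340 in BDIV minus BDIX (2845 over all arrays), 732 to 3088 in congenic minus BDIX, 1306 to 5741 in congenic minus BDIV (3877 over all arrays) and 1 to 20 in male minus female. Nrg1 ranged from 2.65 to 2.98, from -1.47 to -0.99, from -4.29 to -3.80 and from -0.12 to 0.16 in the same order of comparisons. Erbb2 ranged from -1.30 to -1.003, from -0.29 to 0.0068, from 0.92 to 1.10 and from 0.10 to 0.26. Erbb3 ranged from -1.84 to -1.42, from -0.38 to 0.046, from 1.30 to 1.62 and from -0.52 to -0.27. Bace1 in BDIV minus BDIX was -0.21 without the BDIV male and 0.59 without the BDIV female array, the ends of its range. A strain left with 1 array was assumed to vary like the others. The background estimate added after seeing the data changed no call of the 3 genes. The fit holds sex as a term and so compares strains within sex, and the labels give no other replicate numbers to pair by. Dim signal limits Erbb2 in BDIV and Nrg1 in congenic.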
